A study of Homo sapiens with 9 samples.

Results

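A1CF, APOBEC1, APOB, MTTP, MOGAT2, DGAT1, DGAT2, FABP1 and PLIN2, genes of fat absorption by the intestine, were followed in cetuximab-sensitive and cetuximab-resistant LIM1215 cells. They are 9 of the 58920 genes listed for each library and were found by symbol. A1CF and MOGAT2 were picked for their lower RNA in the resistant lines in these same libraries, so their values are given as a description without a test. The other 7 were added because they act in the same pathway, with earlier results of these data known. Values of A1CF in LIM1215-R1 and LIM1215-R2 against the parental line, and likewise of MOGAT2, were what chose these 2 genes.

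LIM1215 is a human colorectal cancer line, and cetuximab is an antibody against the EGF receptor. LIM1215-parental cells were grown without the drug, while LIM1215-R1 and LIM1215-R2 were selected separately from them by months of stepwise rising cetuximab. The resistant lines are mixed populations and not single clones, and all cells were sequenced without treatment in the same RPMI medium with serum. Each line had 3 libraries of stranded poly(A) RNA, described as technical replicates, so that each p-value measures only the spread between these libraries and not that between separate selections.

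In enterocytes, absorbed fatty acids and monoglycerides are carried through the cytosol by binding proteins such as FABP1, joined to triglyceride by MOGAT2 and the DGAT enzymes, and loaded by MTTP onto apolipoprotein B for export as chylomicrons. Triglyceride that is not exported is kept in droplets coated by PLIN2. The APOB mRNA of the intestine is edited: the deaminase APOBEC1, guided by an RNA-binding partner such as A1CF, turns a glutamine codon into a stop codon, which gives the short apoB48 in place of the apoB100 of the liver.

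The edited stretch of APOB is shown because it is the known substrate of A1CF and APOBEC1. It lies in exon 26 of 29, was located by the known codon, and spans chr2:21010313-21010342 on the minus strand of GRCh38. The capital C at position 21010330 is the base that is deaminated, and the sequence is that of the reference genome.
APOB editing site: acatatatgataCaatttgatcagtatatt

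The 250 bases before the transcription start of A1CF and of FABP1 are shown because RNA of both genes was lower in both resistant lines. They are from RefSeq on GRCh38.p14, at chr10:50885628-50885877 and chr2:88128063-88128312, both on the minus strand. Capitals mark letters of 3 motifs searched on both strands: GTTAAT, one arm of the site of HNF1 factors, CAAAGTCCA, a site of HNF4 factors, and AGGTCA, one arm of the sites of nuclear receptors.
A1CF: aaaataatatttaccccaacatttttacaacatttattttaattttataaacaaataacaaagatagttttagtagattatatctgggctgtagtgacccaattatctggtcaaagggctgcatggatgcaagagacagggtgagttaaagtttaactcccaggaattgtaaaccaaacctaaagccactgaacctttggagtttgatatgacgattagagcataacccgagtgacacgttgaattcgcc
FABP1: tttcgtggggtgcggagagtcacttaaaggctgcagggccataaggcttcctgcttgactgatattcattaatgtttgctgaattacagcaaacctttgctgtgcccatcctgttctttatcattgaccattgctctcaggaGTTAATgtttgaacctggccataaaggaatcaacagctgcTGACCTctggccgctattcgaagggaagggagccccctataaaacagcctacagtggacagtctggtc
The FABP1 window held GTTAAT 108 to 103 bases before the start and TGACCT, the reverse complement of AGGTCA, 68 to 63 bases before it. The A1CF window held none of the 3 motifs and had a GC content of 35.6%, against 48% in FABP1. Of 34943 promoter windows of this length, 6.24% held GTTAAT or its reverse complement, 0.326% held CAAAGTCCA and 12.1% held AGGTCA. Windows were also searched for APOBEC1, for PLIN2 and for 2 starts of MTTP. The APOBEC1 window, at chr12:7665909-7666158, lies before a start inside the gene as located in RefSeq. CAAAGTCCA stood 28 to 20 bases before that start, and TGACCT 50 to 45 bases before the second start of MTTP. The PLIN2 window, with a GC content of 78%, and that of the first MTTP start held none. APOB, MOGAT2, DGAT1 and DGAT2 had no window. A match of letters is a description only, and binding was not measured.

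Total counts per library lay between 13737416 and 18725014, and the median was 16773961 for the parental, 16189189 for the R1 and 16112008 for the R2 libraries. Levels are given as CPM, which are counts scaled to library size, here by the TMM method, and 3 counts in 1 library, the most that a count of 0 allows, are 0.158 to 0.217 CPM. Of 8 markers of colorectal epithelium, 7 were at 1 CPM or more and KRT20 was at 0 in every library. Their summed level was 12100 to 12500 CPM in parental, 15500 to 15700 in R1 and 14000 to 14400 in R2 libraries. The higher sums came mostly from the keratins, with KRT8 at 5717 CPM in parental, 7884 in R1 and 7170 in R2. VIL1 was also higher in every resistant library, with means of 308.6 CPM in parental, 406.6 in R1 and 369.3 in R2. EPCAM (910.8, 758.2 and 729.0), CDH17 (597.6, 414.7 and 399.0) and LGALS4 (327.6, 278.7 and 253.4) fell in both resistant lines by the test described further on. By that test CDH1 (378.4, 343.4 and 347.1) did not pass in R1 (adjusted p = 0.0129). Markers of small intestinal enterocytes, the cells that absorb fat, summed to only 2.67 to 3.30 CPM in parental, 5.28 to 6.63 in R1 and 2.91 to 3.85 in R2 libraries, with APOA4 at 0. Within that list ALPI went from 0.993 CPM in parental to 4.44 in R1 and 2.17 in R2, while SI and FABP2, with 16 and 22 counts over the parental libraries, had 0 counts in all resistant ones. Intervals and floors cover counting error only, and less RNA per cell cannot be told apart from fewer cells with the RNA.

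RNA of A1CF, the RNA-binding partner of APOBEC1, was low in the parental line and near the limit of counting in both resistant lines. A1CF lies at chr10:50799409-50885627 on the minus strand and had 72, 48 and 80 counts in the parental libraries, which are 4.25, 3.47 and 4.20 CPM. LIM1215-R1 had 6, 4 and 4 counts, or 0.368, 0.251 and 0.250 CPM, and LIM1215-R2 had 5, 3 and 9 counts, or 0.297, 0.186 and 0.588 CPM. All 3 parental libraries lay above all 6 resistant ones, and the ranges of the resistant lines overlapped. Means were 3.97 ± 0.438 CPM in parental, 0.290 ± 0.0678 in R1 and 0.357 ± 0.208 in R2 (SD, n = 3 each).

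The fitted log2 fold change of A1CF was -3.75 ± 0.322 (SE) in R1 and -3.47 ± 0.310 in R2. As pooled counts per library total, parental was 13.8 times R1 (exact 95% interval 8.05 to 25.7) and 11.4 times R2 (6.94 to 20.0). These 2 intervals cover counting error only and are no test, since A1CF was picked for this fall. R2 was 1.21 times R1, with an interval of 0.563 to 2.66. Both contrasts use the same 3 parental libraries. In the GENCODE annotation ASAH2B reaches into A1CF on the other strand and an unnamed gene lies over A1CF on its own strand, while in RefSeq no gene overlaps it. Counting was strand-specific, and the annotation used for counting is not known. Markers of hepatocytes, another cell type that uses A1CF, were lower too. Their sum was 2.89 to 3.11 CPM in parental, 1.04 to 1.56 in R1 and 0.619 to 0.784 in R2 libraries. Of these, 7 of 8 were counted, with 1 at 1 CPM or more and SERPINA1 at 0. Sums of fibroblast markers were lower as well, at 2.46 to 3.01 CPM in parental, 1.63 to 1.72 in R1 and 1.13 to 1.61 in R2 libraries. So were those of leukocyte markers, at 0.144 to 0.295, 0 to 0.123 and 0 to 0.131 CPM. Macrophage and endothelium sums were lower in R2 and overlapped parental in R1. The enterocyte sums given above did not fall, but the genes of that list went different ways. ALPI and TREH had higher means in both resistant lines, while SI, FABP2, RBP2 and ANPEP, each with few counts, had lower ones. The part of these markers in the result was not tested.

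The edited RNA, its deaminase and the protein that lipidates apolipoprotein B were nearly absent in every line. APOB, the apolipoprotein of chylomicrons, at chr2:21001429-21044073, had 0 counts in all 9 libraries, which allows up to 0.0602 CPM over the 3 parental, 0.0622 over the R1 and 0.0621 over the R2 libraries. APOBEC1, the deaminase, at chr12:7649400-7670599, had 0, 0 and 2 counts in parental, 5, 0 and 0 in R1, and 3, 0 and 0 in R2 libraries. It was at 0 in 6 of the 9 libraries, and its 10 counts just met the minimum for testing. Its log2 fold change was 1.23 ± 1.43 in R1 (adjusted p = 0.563) and 0.55 ± 1.55 in R2 (adjusted p = 0.842), by the quasi-likelihood test of edgeR after Benjamini-Hochberg adjustment. MTTP, the protein that loads lipid onto apolipoprotein B, at chr4:99564130-99623997, had 1 count in the second parental library, 1 in the second R2 library and 0 in the other 7, too few to test. RNA of APOB was thus not detectable at this depth in any line, and MTTP was at or below the limit that a count of 0 allows.

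MOGAT2, which joins a fatty acid to monoglyceride, was lower in both resistant lines and lowest in R2. It lies at chr11:75717838-75732953 on the plus strand and had 25.9, 28.5 and 26.3 CPM in parental, 5.58, 7.41 and 7.01 in R1, and 3.15, 2.60 and 2.61 in R2 libraries. These were 439, 395 and 501 counts in parental, 91, 118 and 112 in R1, and 53, 42 and 40 in R2. The 3 lines did not overlap. The log2 fold change was -2.01 ± 0.109 in R1 and -3.26 ± 0.127 in R2, and R2 minus R1 was -1.25 ± 0.155. Unlike A1CF, where the resistant lines overlapped, MOGAT2 separated R2 from R1 in every library, which is given as a description and was not tested.

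**Figure D1:**
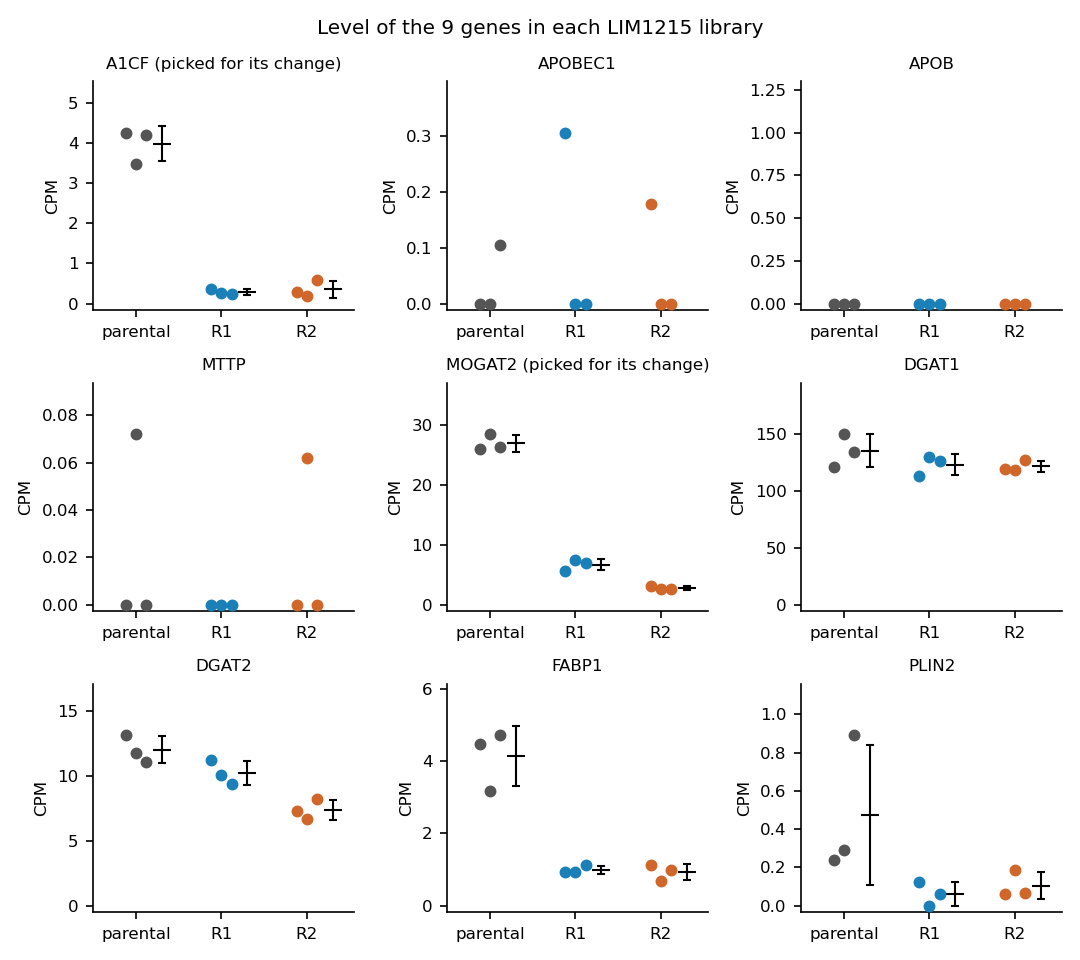
CPM of the 9 genes in each of the 9 libraries (points, with 3 per line), with 1 panel per gene and its own linear axis from 0. Bars beside the points give the mean ± SD of a line for genes with more than 30 counts in all. A1CF and FABP1 are high in parental and overlap between R1 and R2, MOGAT2 stands at a separate level in each line, DGAT1 stays between 113.3 and 150.6 CPM, and APOB is at 0.

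Of the 7 genes not picked for their change, 5 had at least 10 counts and were tested. A differentially expressed gene (DEG) had to reach an adjusted p of 0.01 or less and a log2 fold change of 1.5 or more in either direction. In R1 against parental, FABP1 and PLIN2 were lower DEGs, where 1.91% of 19102 genes tested were lower DEGs and 3.24% higher ones. At the same adjusted p with any size of change, these were still the 2 genes that fell, against 13.4% of all genes lower and 14.0% higher. In R2 against parental, FABP1 was the 1 lower DEG, where 2.19% of all genes were lower DEGs and 2.63% higher. FABP1 and DGAT2 fell there with any size of change, against 11.6% of all genes lower and 12.3% higher. Between R2 and R1, edgeR called 0 of the 5 and DESeq2 likewise 0, with 1 gene, DGAT2, at an unadjusted p under 0.05. The background of that comparison was 0.550% lower DEGs and 0.215% higher, or 3.77% lower and 3.39% higher with any size of change. The median log2 fold change of the 5 was -0.23 in R1, -0.70 in R2 and -0.09 between the resistant lines, while that of all genes tested was -0.01, -0.0037 and -0.0011.

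FABP1, the liver-type fatty acid binding protein also found in enterocytes, fell about 4-fold in both lines. At chr2:88122982-88128062 on the minus strand, it had 76, 44 and 90 counts or 4.49, 3.18 and 4.73 CPM in parental libraries. It had 15, 15 and 18 counts or 0.920, 0.941 and 1.13 CPM in R1, and 19, 11 and 15 counts or 1.13, 0.681 and 0.980 CPM in R2. The lowest parental library lay above the highest resistant one, and the resistant lines overlapped. By edgeR's quasi-likelihood test, the log2 fold change was -2.06 ± 0.242 in R1 (adjusted p = 9.22e-08) and -2.15 ± 0.245 in R2 (adjusted p = 5.1e-08). R2 minus R1 was -0.09 ± 0.314 (adjusted p = 0.904). The hepatocyte markers given beside A1CF moved the same way as FABP1, as did the fibroblast and leukocyte sums, and their part was not tested.

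The DGAT enzymes, which add the last fatty acid to diglyceride, differed from one another. DGAT1 had 121.7, 150.6 and 134.3 CPM in parental, 113.3, 130.4 and 126.5 in R1, and 119.7, 118.7 and 127.5 in R2 libraries. These ranges overlapped, and the log2 fold change was -0.13 ± 0.0643 in R1 (adjusted p = 0.113) and -0.15 ± 0.0644 in R2 (adjusted p = 0.0776). DGAT2, at chr11:75768778-75801534 on the plus strand and 35.8 kb from MOGAT2, had 13.2, 11.8 and 11.1 CPM in parental, 11.2, 10.0 and 9.39 in R1, and 7.26, 6.69 and 8.23 in R2 libraries. All R2 libraries lay below all others, while the R1 and parental ranges overlapped. DGAT2 fell in R2 by 0.70 ± 0.120 on the log2 scale (adjusted p = 3.25e-05), and its log2 fold change in R1 was -0.23 ± 0.114 (adjusted p = 0.122). R2 minus R1 was -0.47 ± 0.123 with an adjusted p of 0.0103, just outside the threshold, and it passed in 6 of 17 alternative settings, with adjusted p-values from 0.00375 to 0.0761.

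PLIN2, the droplet coat protein, at chr9:19108388-19127492, was counted only a few times. Parental libraries had 4, 4 and 17 counts or 0.236, 0.289 and 0.893 CPM. R1 had 2, 0 and 1 counts, and R2 had 1, 3 and 1. The 3 parental libraries lay above all resistant ones, and most parental counts came from 1 library. The R1 to parental log2 fold change was -2.83 ± 0.847 (adjusted p = 0.00934), and the parental to R1 count ratio was 8.06 (exact 95% interval 2.46 to 41.7). The R2 value was -2.16 ± 0.770 (adjusted p = 0.0318), with a ratio of 4.84 (1.82 to 16.2). Without the third parental library the R1 adjusted p was 0.162. The R1 call was kept in 6 of 16 alternative settings, and was also lost without the second or the third R1 library or any 1 of the R2 libraries (adjusted p = 0.0428, 0.0327, and 0.0109 to 0.012). R2 minus R1 was 0.67 (adjusted p = 0.782).

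Levels of the members were compared with one another only as CPM per kilobase of the canonical transcript. In parental cells DGAT1 stood highest at 37.1, followed by MOGAT2 at 9.89, FABP1 at 8.24, DGAT2 at 4.99 and A1CF at 0.431 CPM per kb, with no overlap between neighbours. In R1 the order was DGAT1 at 33.8, DGAT2 at 4.25, MOGAT2 at 2.45, FABP1 at 1.99 and A1CF at 0.0314, and MOGAT2 and FABP1 overlapped. In R2 it was DGAT1 at 33.4, DGAT2 at 3.07, FABP1 at 1.86, MOGAT2 at 1.02 and A1CF at 0.0387, with no overlap. DGAT2 thus stood below MOGAT2 in parental cells and above it in both resistant lines. The choice of length mattered most for FABP1, which per kilobase of all annotated exons was at 1.71 in parental cells and overlapped DGAT2 at 1.52. On that scale, the exchange of DGAT2 and MOGAT2 was found in R2 alone (0.935 for DGAT2 and 0.677 for MOGAT2), since in R1 the values of 1.29 and 1.62 overlapped, and MOGAT2 lay above FABP1 in R2 (0.385).

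**Figure D2:**
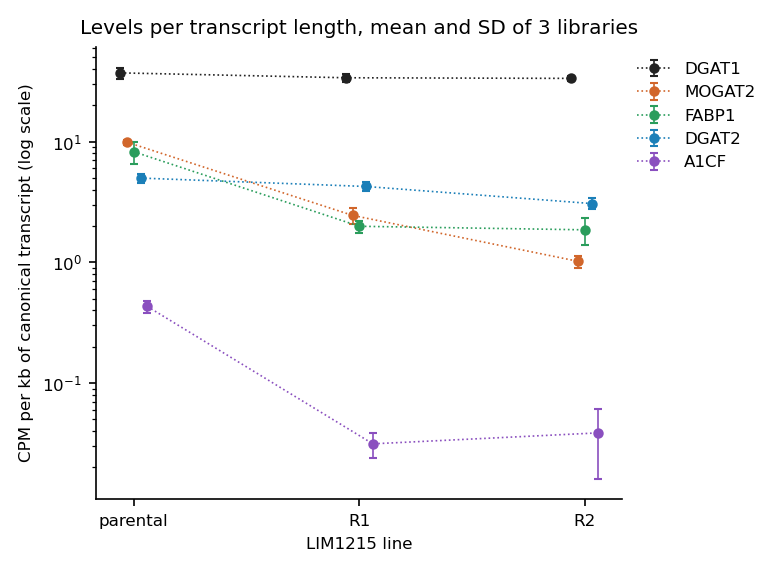
Mean level per line in CPM per kilobase of canonical transcript, on a log axis, for the 5 genes with a measurable level, with bars of 1 SD over 3 libraries. Dotted lines only guide the eye between lines. DGAT1 is highest in every line, A1CF lowest, and MOGAT2 drops below DGAT2 in R1 and R2.

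Another 85 genes of the pathway, in 7 lists, were then examined, and 67 had enough counts to test. In R1 against parental, 13 rose and 17 fell with an adjusted p within 0.01 (19.4% and 25.4% of the tested genes) and 37 did not pass, where 14.0% of all genes rose and 13.4% fell. In R2, 12 rose and 15 fell (17.9% and 22.4%) and 40 did not pass, where 12.3% of all genes rose and 11.6% fell. The counts of each list below stand beside these same shares. The median log2 fold change was -0.04 in both contrasts, which share the parental libraries. The same 7 genes were DEGs in both lines, with ACSL6, MGLL and SLC27A1 higher and CELF2, CIDEC, FABP2 and SOAT1 lower.

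Among 8 genes of fatty acid and sterol uptake, 2 rose and 3 fell in R1, and 1 rose and 3 fell in R2. SLC27A1, a fatty acid transport protein, rose from 0.783 CPM in parental to 2.95 in R1 and 2.57 in R2, a log2 fold change of 1.90 (adjusted p = 1.06e-06) and 1.70 (adjusted p = 8.13e-06). FABP2, the intestinal fatty acid binding protein, was chosen after its values were seen, since it lies below the 1 CPM set for named genes. It had 22 counts over the 3 parental libraries (0.354, 0.506 and 0.473 CPM) and 0 in all resistant ones. With 3 counts over a resistant line as the ceiling, the scaled parental value was 7.10 times that of R1 and 7.11 times that of R2. These ratios leave out the counting error of the 22 parental counts and are not lower bounds. SCARB1, the lipoprotein receptor and the gene of highest mean CPM in this list, had log2 fold changes of 0.19 (adjusted p = 0.0175) and 0.13 (adjusted p = 0.12). Per kb of canonical transcript, FABP5 (95.6 CPM) and SLC27A2 (42.4) stood above SCARB1 (34.3) in parental cells. FABP5 was among the genes that fell in both lines, and SLC27A2 among those that rose in R1.

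Of 5 genes of fatty acid activation, ACSL6 rose and ACSL5 fell in both lines. ACSL6, an acyl-CoA synthetase, had 6.43, 6.14 and 5.73 CPM in parental, 17.5, 16.9 and 18.1 in R1, and 27.1, 24.7 and 25.6 in R2 libraries. Its 3 lines did not overlap, with log2 fold changes of 1.52 ± 0.103 (adjusted p = 2.09e-12) and 2.08 ± 0.0986 (adjusted p = 9.89e-16). ACSL4, the highest of the list, had values of -0.04 (adjusted p = 0.733) and 0.01 (adjusted p = 0.909).

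Among 11 genes of triglyceride and sterol ester synthesis, 1 rose and 1 fell in R1, and 1 rose and 2 fell in R2. SOAT1, which esterifies cholesterol, fell most. It had 6.85, 5.92 and 6.83 CPM in parental, 0.982, 0.753 and 0.751 in R1, and 0.238, 0.248 and 0.131 in R2 libraries, so that the 3 lines did not overlap. Log2 fold changes were -2.97 ± 0.216 (adjusted p = 9.03e-12) and -4.93 ± 0.282 (adjusted p = 5.69e-14). AGPAT3, the gene of highest mean CPM in the list, had values of 0.03 (adjusted p = 0.681) and -0.01 (adjusted p = 0.914). Per kb of canonical transcript, AGPAT2 stood above it in parental cells, at 82.2 against 20.2 CPM, and AGPAT2 was among the genes that fell in R2.

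The lipid droplet list of 15 genes had 5 higher and 2 lower in R1, and 3 higher and 2 lower in R2. MGLL, the monoglyceride lipase that splits the substrate of MOGAT2, had 17.8, 16.5 and 16.2 CPM in parental, 77.3, 85.6 and 83.8 in R1, and 84.5, 86.6 and 88.0 in R2 libraries. It rose by 2.29 ± 0.0682 (adjusted p = 5.24e-20) and 2.36 ± 0.0680 (adjusted p = 2.45e-20) on the log2 scale, and parental lay below all resistant libraries. CIDEC, a droplet fusion protein, fell, with log2 fold changes of -3.29 ± 0.671 (adjusted p = 2.73e-04) and -3.83 ± 0.725 (adjusted p = 1.22e-04), from parental values that spread from 0.473 to 2.07 CPM. Adipocyte markers, which include CIDEC, summed to 0.578 to 2.24 CPM in parental, 0.188 to 0.552 in R1 and 0.297 to 0.588 in R2 libraries, with 3 of 6 counted and ADIPOQ, LEP and LPL at 0. PNPLA2, the triglyceride lipase and highest of the list, rose in R1 (0.39, adjusted p = 1.48e-04), with 0.15 in R2 (adjusted p = 0.147), where it passed only without the second parental library.

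Of 10 tested genes of apolipoprotein B assembly and export, 3 rose in R1 (P4HB, SEC24D and SURF4). In R2 these and SEC24C rose, 4 in all, and the others did not pass in either line. The apolipoproteins APOA1, APOA4, APOA5, APOC2 and APOC3, with TM6SF2 and PRAP1, had at most 4 counts each and were not tested. P4HB, the protein disulfide isomerase that is the partner subunit of MTTP, was the highest at 876 CPM in parental, and rose by 0.16 in R1 (adjusted p = 6.71e-04) and 0.14 in R2 (adjusted p = 0.00316). The R2 call of P4HB was lost without the first or the third parental or the first or the third R2 library, with adjusted p-values up to 0.0215. Of 8 further genes around APOB editing, 5 fell in R1 (BAG4, CELF2, HNRNPC, KHSRP and RBM47), while 1 rose and 3 fell in R2. CELF2 had 7.02, 7.51 and 7.93 CPM in parental, 1.53, 0.816 and 1.25 in R1, and 0.595, 0.310 and 0.327 in R2 libraries, with no overlap between lines. Its log2 fold changes were -2.63 ± 0.210 (adjusted p = 6.17e-11) and -4.15 ± 0.258 (adjusted p = 3.24e-13). RBM47, another RNA-binding cofactor of APOBEC1, named after its values were seen, had 48.9 CPM per kb of canonical transcript in parental, 43.4 in R1 and 42.7 in R2, against 0.431, 0.0314 and 0.0387 for A1CF. Its log2 fold changes were -0.17 (adjusted p = 0.00335) and -0.20 (adjusted p = 0.00104). The R1 call was lost without the first or the third parental or the second or the third R1 library (up to 0.0212), and the R2 call without the third R2 library (0.0122). HNRNPAB, the highest of the list, had 0.11 (adjusted p = 0.0309) and 0.06 (adjusted p = 0.251).

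Of 10 transcription factors of lipid absorption genes, 5 fell and 1 rose in R1, and 4 fell and 1 rose in R2, while of all genes 13.4% fell and 14.0% rose in R1, and 11.6% fell and 12.3% rose in R2. CDX2, an intestinal identity factor and the highest of them, fell from 412.8 CPM in parental to 305.2 in R1 and 282.9 in R2, with log2 fold changes of -0.44 (adjusted p = 4.66e-09) and -0.55 (adjusted p = 6.04e-11). HNF4A and HNF4G, chosen after their values were seen, fell in both lines. The log2 fold changes of HNF4A were -0.55 (adjusted p = 6.19e-10) and -0.63 (adjusted p = 3.72e-11), and those of HNF4G -1.17 (adjusted p = 4.95e-12) and -1.06 (adjusted p = 2.68e-11). HNF4G had 46.1, 44.1 and 47.5 CPM in parental and 18.5 to 23.7 in the resistant libraries.

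**Figure D3:**
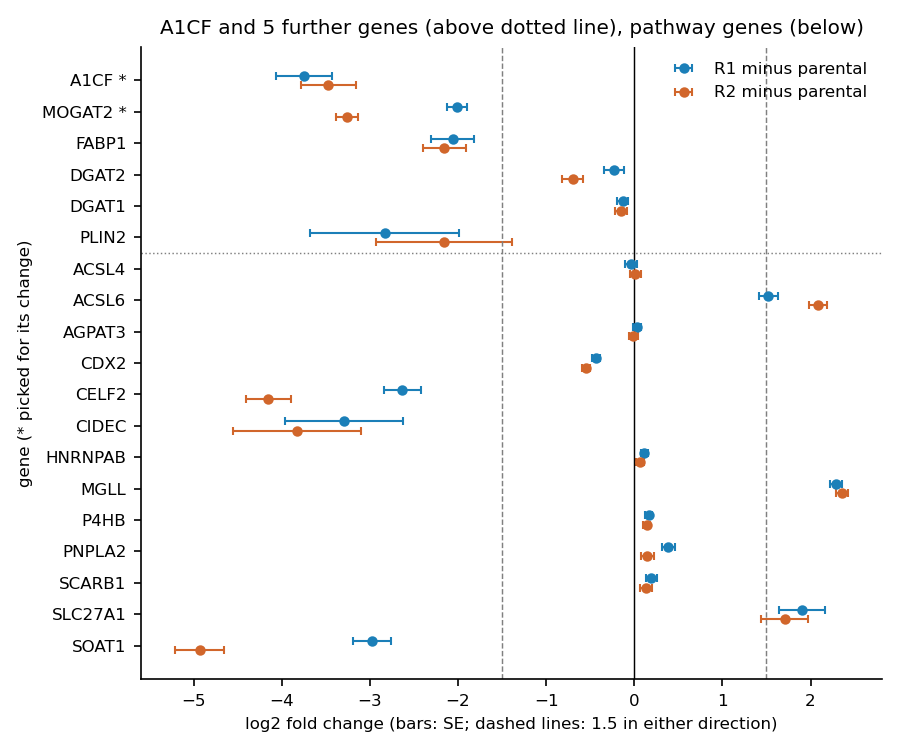
log2 fold change against LIM1215-parental in R1 and R2, with bars of 1 SE, for 6 of the 9 genes (above the dotted line, those picked for their change with a star) and for 13 named pathway genes below it. Dashed lines mark 1.5 in either direction. A1CF, MOGAT2, FABP1, PLIN2, CELF2, CIDEC and SOAT1 lie left of the lower line in both resistant lines, and MGLL, SLC27A1 and ACSL6 right of the upper one.

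**Figure D4:**
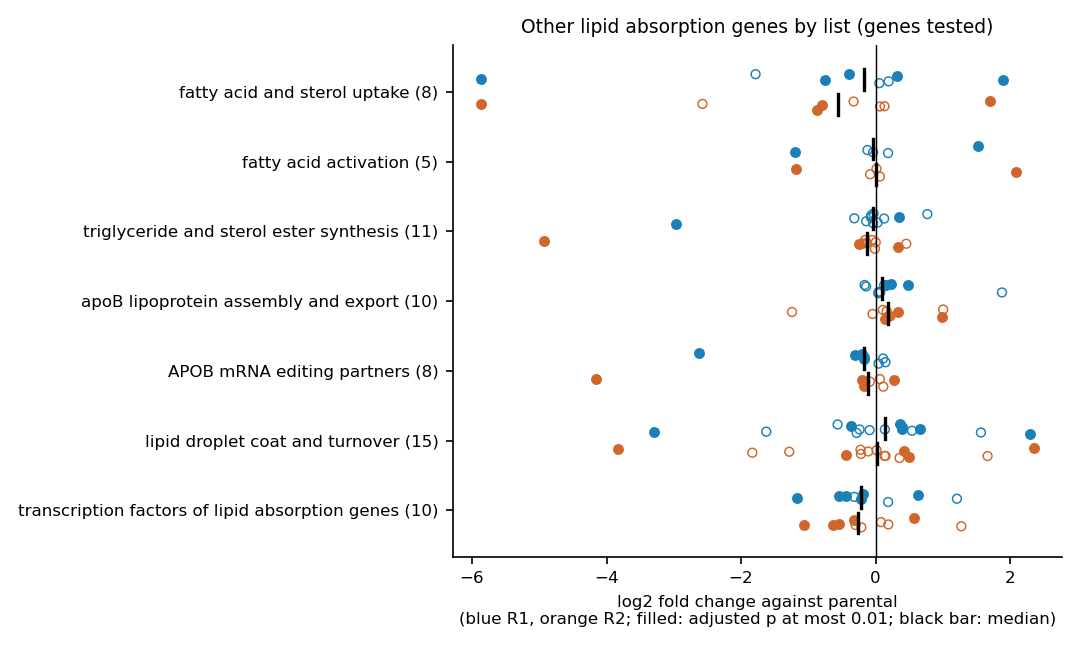
log2 fold change against LIM1215-parental of the 67 tested genes of the 7 lists, 1 row per list with the number tested, R1 in blue and R2 in orange. Filled points have an adjusted p of at most 0.01, and black bars give list medians, which lie between -0.56 and 0.18. The points of FABP2 near -5.9 come from 0 counts in the resistant lines and depend on the prior count of the fit.

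R2 and R1 were compared directly as well. Of the 67 genes, 4 were higher in R2 (ACSL6, MIA3, PPARA and SEC24D) and 4 lower (CELF2, FABP5, SLC27A2 and SOAT1), or 5.97% each, where 3.39% of all genes were higher and 3.77% lower, and the median difference was -0.04. CELF2 and SOAT1 were DEGs.

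The genes whose pattern over the 9 libraries was most like that of A1CF were ranked by the root mean square difference of centred log2 CPM, among 13034 genes with at least 1 CPM in the highest line. They were ZNF516 (0.297), RCN3 (0.319), RNASE1 (0.322), SLC39A5 (0.340) and HPGD (0.400). HPGD, which inactivates prostaglandins, had 61.9 CPM in parental, 9.72 in R1 and 7.70 in R2. FABP1 ranked 70 (0.678) and MOGAT2 ranked 100 (0.738). For MOGAT2 they were ANKRD40CL (0.133), CREB3L1 (0.194), MARK1 (0.242), GASK1B (0.250) and PRLR (0.270). CREB3L1, a transcription factor bound to the endoplasmic reticulum, had 69.3 CPM in parental, 13.7 in R1 and 5.73 in R2, so its levels came apart in the same order as those of MOGAT2. These genes were selected for their likeness, which is a description.

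**Figure D5:**
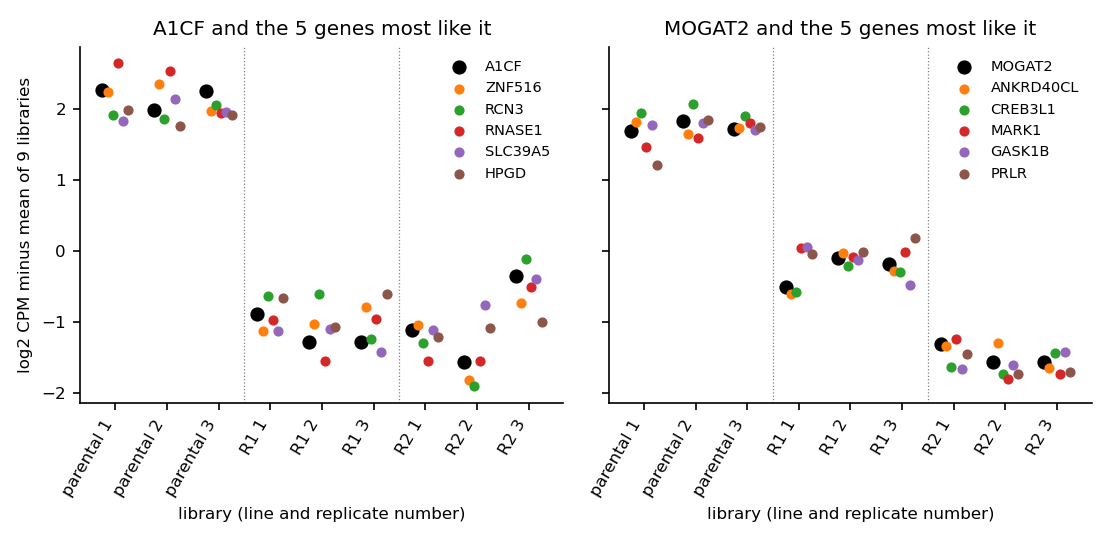
log2 CPM minus its mean over the 9 libraries for A1CF (left) and MOGAT2 (right), in black, and the 5 genes most like each, in colour, with 1 column per library. On the left the R1 and R2 libraries share a low level, and on the right R2 lies below R1.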

How the data were processed

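Poly(A) RNA of the parental line and of 2 resistant lines was sequenced in 3 libraries each. Reads were aligned by the authors to hg38 with STAR and counted per gene with htseq-count 0.9.1 on the reverse strand, and 1 table of raw counts per library was deposited. The gene annotation was not given in the sources used here. The authors' own test was DESeq2, followed by lfcShrink, of a type that the paper does not state. With lfcShrink of the normal type, none of the 7 members not picked for their change was a DEG in R1 or R2.

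The software was edgeR 4.0.16, limma 3.58.1 and R 4.3.3. A gene needed 10 or more counts summed over all libraries. The 19102 such genes were scaled by TMM and fitted in 1 quasi-likelihood model with 3 lines, and p-values were adjusted by Benjamini-Hochberg over all genes tested. The SE was derived from the test statistic. DESeq2 1.42.0 was an alternative, as were other filters, scalings, samples and a log2 threshold of 1. The script was tested on simulated data. All 9 symbols matched RefSeq, which gave positions and promoters. Same-numbered libraries were checked for pairing and did not deviate together.

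Members and lists were chosen with earlier results of these data known. Named were all 9 members and each listed pathway gene that was a DEG in any contrast with at least 1 CPM in the higher line. Also named were the gene of highest mean CPM in each list, without scaling by length, and the 5 genes most like A1CF and MOGAT2. Summed marker levels were at most 0.722 CPM (macrophage and endothelium), 3.01 (fibroblast) and 0.295 (leukocyte) in any library.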

Additional observations from a re-analysis of the deposited data

Results flagged for a closer look

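The 2 resistant lines differed from each other in 3 named pathway genes by edgeR's quasi-likelihood test of R2 against R1, with Benjamini-Hochberg adjustment. ACSL6 was higher in R2 than in R1 by 0.56 on the log2 scale (adjusted p = 2.78e-05), at 25.8 against 17.5 CPM, with every R2 library above every R1 library. SOAT1 had a log2 difference of -1.96 (adjusted p = 0.00175), at 0.205 CPM in R2 against 0.829 in R1, and its adjusted p was 0.0118 without the third R2 library. CELF2 had a difference of -1.52 (adjusted p = 0.00417), at 0.410 CPM in R2, with every R2 library below every R1 library, and passed in 11 of 16 alternative settings, with adjusted p-values up to 0.0348. It was lost with the 6 libraries of the contrast alone and without the first or the third R1 library or the second or the third R2 library. Groups of 3 libraries are too small for a search for outlying values.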

How the results depend on the processing

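The cause of each change below was not tested. Of the members, the 2 calls in R1 became 1 with a minimum of 10 counts per library, with DESeq2's Wald test, with the replicate number as a block and with the 6 libraries of the contrast, 0 with lfcShrink, and 1 to 2 when single libraries were left out. The 1 call in R2 became 0 with lfcShrink. Of the 7 pathway genes called in R1, 3 were left with a minimum of 10 counts per library, where low genes are not tested, and 3 with lfcShrink. For R2 these were 3 and 4. Of the 2 called between R2 and R1, 0 were left under either, 1 with the 6 libraries of the contrast, and 0 to 2 when single libraries were left out. Deviations of same-numbered libraries from the mean of their line, taken without a block, correlated between -0.0186 and 0.0984, so the numbers pair nothing. In edgeR's quasi-likelihood test, the replicate block took the PLIN2 call in R1 (adjusted p = 0.0117).

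Signs turned only in values that were not called. With lfcShrink, APOBEC1 in R2 was -0.0027, and R2 minus R1 was -0.17 for A1CF and -0.038 for PLIN2. R2 minus R1 of DGAT1 was 0.0012 with total counts only. Without single libraries it ranged from -0.0754 to 0.0238 for DGAT1, from -0.265 to 0.0864 for FABP1 (above 0 without the third R1 or the second R2 library) and from -0.25 to 0.58 for A1CF (below 0 without the third R2 library). lfcShrink moved A1CF to -1.57 in R1 and -1.47 in R2, and FABP1 to -1.09 and -1.14. All of these but the R1 value of A1CF were short of the DEG size. Of the values of single members under the alternatives, 298 kept their direction and their side of an adjusted p of 0.01. This held for any size of change. For A1CF and MOGAT2, which have no p, values counted here kept direction and moved by less than a set multiple of the main SE. Another 10 lost the adjusted p threshold, 6 gained it, 5 moved and 10 turned sign. Counts under 20 per library limit A1CF, FABP1 and PLIN2 in the resistant lines.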

Other observations

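The nearest tested neighbours with at least 1 CPM were read beside the members. Distances are those of RefSeq. ASAH2B, which ends 40.2 kb from A1CF in RefSeq but reaches into it in GENCODE, had log2 fold changes of 0.08 in R1 (adjusted p = 0.714) and 0.25 in R2 (adjusted p = 0.161), against -3.75 and -3.47 for A1CF. CSTF2T, 810 kb away on the other side, fell, with -0.24 in R1 (adjusted p = 0.00116) and -0.24 in R2 (adjusted p = 0.00122). SERPINH1, a collagen chaperone 145 kb from MOGAT2, had 0.01 (adjusted p = 0.917) and -0.14 (adjusted p = 0.0267). UVRAG, 13.7 kb from DGAT2, had -0.29 (adjusted p = 0.041) and -0.24 (adjusted p = 0.0982). KRCC1, 67.2 kb from FABP1, fell by 0.58 (adjusted p = 1.14e-05) in R1 and 0.36 (adjusted p = 0.00234) in R2. THNSL2, 42.3 kb from FABP1 on its other side, had -0.05 in R1 (adjusted p = 0.818) and -0.998 in R2 (adjusted p = 2.79e-06). All adjusted p-values are from edgeR's quasi-likelihood test.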
